A study of Mus musculus with 15 samples.

Results

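The natriuretic peptide genes Nppa and Nppb, their receptor genes Npr1, Npr2 and Npr3, and Corin, which encodes the enzyme that matures the Nppa product, were followed in mouse ventricle after induction of the RNA-binding protein Celf1. The members were chosen by gene symbol, and each of the 6 symbols matched 1 row of the 16042 in the deposited table. The study held 15 ventricle samples, 3 mice in each of 5 groups, aged 20 to 22 weeks and fed doxycycline at 2 g/kg. Control mice (MHCrtTA) carried only the doxycycline-dependent activator, driven in heart muscle by the alpha myosin heavy chain promoter, and were fed doxycycline for 72 hours. The other mice (MHCrtTA/TRECUGBP1) also carried a Flag-tagged LYLQ isoform of human Celf1 under a doxycycline-responsive promoter and were fed for 12 hours, 24 hours, 72 hours or 7 days. All food was withheld for 2 to 3 hours before doxycycline food was given, and the tissue was ventricle without atria and without the tip of the apex. Values are RPKM, in which the reads of a gene in polyadenylated RNA are divided by its length and by the mapped reads of the column.

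Heart muscle cells secrete atrial natriuretic peptide (from Nppa) and brain natriuretic peptide (from Nppb) when stretched, and the peptides lower blood volume and pressure. Both act through Npr1, a receptor that makes cyclic GMP, while Npr2 is the related receptor for C-type natriuretic peptide and Npr3 removes the peptides from the circulation without making cyclic GMP. Nppa is high in the atria of the adult heart and low in the healthy ventricle, where it is a widely used marker of stress. Corin is a membrane protease of heart muscle cells that cuts the precursor of atrial natriuretic peptide.

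Nppa and Nppb lie side by side on chromosome 4 in the mm9 build that the files use, and the promoters of both are printed here because these genes had the largest changes of the 6. Nppa spans positions 147374831 to 147376188 and Nppb positions 147359897 to 147361314, both on the plus strand, with 13516 bases between them and 3 exons each. The sequences below are the 250 bases before the RefSeq start in build GRCm38.p6, 5′ to 3′, for Nppa at chr4:148000472-148000721 and for Nppb at chr4:147985650-147985899, both on the plus strand. Capitals mark matches on either strand to the GATA factor letters TGATAA and AGATAA, the T-box letters GGTGTGA and the M-CAT letters CATTCC, which TEAD factors bind.
Nppa: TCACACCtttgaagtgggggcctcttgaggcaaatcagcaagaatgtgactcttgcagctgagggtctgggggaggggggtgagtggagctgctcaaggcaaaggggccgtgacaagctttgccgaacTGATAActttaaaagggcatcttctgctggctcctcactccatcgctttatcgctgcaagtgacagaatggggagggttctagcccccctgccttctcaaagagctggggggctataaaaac
Nppb: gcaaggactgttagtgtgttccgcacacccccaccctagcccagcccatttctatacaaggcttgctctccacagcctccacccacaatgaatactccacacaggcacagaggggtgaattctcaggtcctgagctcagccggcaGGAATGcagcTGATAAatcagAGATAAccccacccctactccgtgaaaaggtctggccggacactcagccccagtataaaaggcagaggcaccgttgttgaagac
The Nppa window held TGATAA at position -122 from the start site and, on the minus strand, the T-box letters at its far end. The Nppb window held TGATAA at position -95 and AGATAA at -84, and the M-CAT letters on the minus strand at -105. Among 32851 mouse promoter windows of the same length, 7.94% held TGATAA, 9.99% AGATAA, 3.33% the T-box letters and 12.6% the M-CAT letters. The windows of the other 4 members held none of these 4 motifs, and no window of the 6 held the CArG box or the MEF2 box, which 1.47% and 2.92% of windows had. A match is a description of the letters, not of a factor bound there.

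Sequencing depth, estimated from the steps between low values, was 16.45 to 52.25 M reads per column. That gave Nppa 148 to 48371 estimated reads per column and Nppb 1279 to 21507, with a counting error of at most 8.22%, and the receptor Npr1 522 to 1785. The Celf1 row (listed as Cugbp1) read 33.29 to 36.09 RPKM in controls, 219.7 to 351 at 12 hours, 295.4 to 422.8 at 24 hours and 158.9 to 180.9 at 72 hours. The 3 libraries labelled 7 days read 29.54 to 37.93, which overlaps the controls, so the row does not check that label. The row of Myh6, the gene whose promoter drives the activator, averaged 9150 RPKM in controls and 1098 at 7 days. Each table column carries a code, and the controls share theirs with 1 other mouse, A3278 of the 72 hour group. No column of the 12 hour or 7 day mice has the controls' code. There, a difference from control by code and one by group can be separated only through A3278. No other group has the codes of the 24 hour mice, where a difference by code and a difference by group cannot be told apart. The label gives no culture or litter, and p-values measure the spread between mice. Groups that do not overlap were common over the 10868 genes whose mean reached 1 RPKM. In order of time, all 3 mice lay below every control for 43%, 32.9%, 19.5% and 34.5% of them. All 3 lay above every control for 4.6%, 13.9%, 15.5% and 32.4%.

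Marker lists of ventricular and atrial muscle were read in the controls. The 8 markers listed for ventricular muscle summed to 32060 to 32950 RPKM in controls. Most of these 8, Myh6 among them, are genes of heart muscle in general, so their sum does not check ventricle identity. The 11 atrial markers summed to 110.6 to 122.3, and none of them was at 0 in every mouse. In bulk tissue, fewer cells of a type and less RNA per cell cannot be told apart.

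Nppa, the atrial natriuretic peptide gene, was by far the most changed member. At 7 days the 3 mice read 574.9, 1012 and 1233 RPKM, against 36.31, 40.12 and 49.39 in the controls. The groups did not overlap, and 32.4% of all genes also lay above every control. The 7 day mean of 939.9 ± 335 (SD, n = 3) was 22.4 times the control mean of 41.9 ± 6.73. On the log2(RPKM + 1) scale the libraries labelled 7 days were higher by 4.40 ± 0.37 (SE; limma adjusted p = 4.60e-08).

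The earlier course of Nppa was uneven. The 12 hour mice read 45.19, 63.48 and 71.85 RPKM, with the lowest inside the range of the controls, and their difference of 0.50 ± 0.37 did not pass (limma adjusted p = 0.337). The 24 hour mice read 64.76, 110.7 and 129.3 RPKM, all above every control, beside 13.9% of all genes. That rise of 1.21 ± 0.37 passed (limma adjusted p = 0.0362), but with no filter or with the first column of each mouse the adjusted p was 0.0855 and 0.113, and leaving out any single control or 24 hour mouse gave adjusted p of 0.0586 to 0.116. With GC correction the rise was 1.595 (limma adjusted p = 0.00904). The call held under 17 of 25 alternatives. The 72 hour mice read 20.76, 27.35 and 67.16 RPKM, 2 of them below and 1 above all 3 controls. Their mean differed from control by -0.29 ± 0.37 (limma adjusted p = 0.629).

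Between 24 and 72 hours Nppa fell by 1.50 ± 0.37 on the log2 scale (limma adjusted p = 0.0151), although the highest 72 hour mouse overlapped the lowest 24 hour mouse. Without the 72 hour mouse A3264 the fall was 1.16 (limma adjusted p = 0.0756), and with only the 24 and 72 hour mice fitted the adjusted p was 0.0839. Atrial muscle markers were lower at the same step: the sum of 11 was 97.39 to 181.7 RPKM at 24 hours and 38.91 to 108.7 at 72 hours. Among the markers, 4 of 9 tested were called lower and none higher, beside 279 lower and 834 higher of all 10868 genes. The lower markers included the atrial light chains Myl7 (-2.03, limma adjusted p = 0.0132) and Myl4 (-1.33, limma adjusted p = 0.0332), and Sln, sarcolipin (-2.69, limma adjusted p = 0.0370). The part of atrial tissue in this step of Nppa was not tested. From 72 hours to 7 days Nppa rose by 4.69 ± 0.37 (limma adjusted p = 3.22e-08), and the groups were far apart. In order of mean level, 7 days stood first, followed by 24 hours, 12 hours, control and 72 hours, and of neighbours in that order only 7 days and 24 hours differed beyond their spread, by 3.18 ± 0.37 (limma adjusted p = 2.22e-06).

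**Figure D1:**
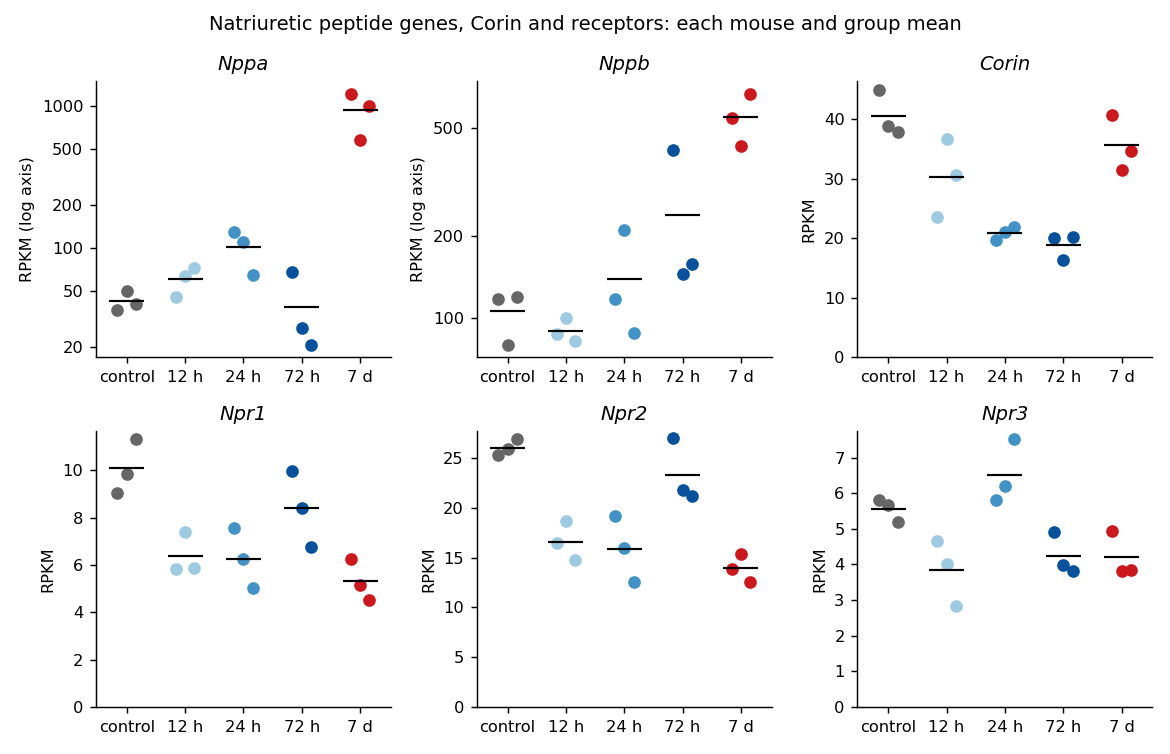
RPKM of the 6 members in each mouse (points) with the group mean (bars), by group, on a log axis for Nppa and Nppb and on axes from 0 for the others. The 7 day Nppa values of 574.9 to 1233 stand apart from all other mice, while Corin is lowest at 24 and 72 hours and Npr1 and Npr2 are lowest at 7 days.

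Nppb, the brain natriuretic peptide gene, began at a higher level than Nppa and rose less. The controls read 79.73, 117.5 and 119.7 RPKM and the 12 hour mice 82.46, 87.59 and 99.56, which overlap (difference -0.21 ± 0.35, limma adjusted p = 0.680). The 24 hour mice read 88.16, 117.6 and 211.1 RPKM, with 1 mouse above the controls (0.32 ± 0.35, limma adjusted p = 0.526). The 72 hour mice read 144.6, 158.2 and 414.3 RPKM, all above every control, beside 15.5% of all genes. The mean was 2.26 times that of the controls. That difference of 1.02 ± 0.35 missed the threshold (limma adjusted p = 0.0672).

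The 72 hour value of Nppb turned on mouse A3278, which read 414.3 RPKM and is the mouse that shares its column code with the controls. Without A3278 the difference was 0.54 (limma adjusted p = 0.182). Set alone against the 3 controls of the same code, A3278 was higher by 1.98 (limma adjusted p = 0.00698, a single mouse to which the spread pooled over the groups of the fit is assumed to apply). With the column code as a term the 72 hour difference was 1.98 and passed (limma adjusted p = 0.000888). This is the A3278 value again. A3278 is the only mouse outside the controls with their code, so each difference from control in that fit rests on it. After median ratio scaling, quantile normalization or GC correction the 72 hour difference was 1.07 to 1.13 and passed, with adjusted p of 0.0284 to 0.0378. Against the 12 hour mice, Nppb at 72 hours was higher by 1.23 ± 0.35 (limma adjusted p = 0.0220).

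At 7 days the Nppb values were 429.9, 543.3 and 667.5 RPKM, all above the 72 hour mice, beside 25% of all genes. Nppb was then 5.18 times the control mean, a rise of 2.36 ± 0.35 on the log2 scale (limma adjusted p = 2.64e-05). It rose by 1.34 ± 0.35 between 72 hours and 7 days (limma adjusted p = 0.00486). In order of mean level the groups ran 7 days, 72 hours, 24 hours, control and 12 hours, and 7 days differed from 72 hours but no other neighbours passed the test.

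The balance between the peptide genes was read from their ratio in each mouse. The ratio of Nppa to Nppb RPKM was 0.309, 0.335 and 0.620 in the controls, and 0.131, 0.162 and 0.189 at 72 hours, below all controls. At 7 days it was 1.34, 1.52 and 2.27, above every control and the only group in which Nppa exceeded Nppb in all 3 mice. On the log2 scale the ratio differed from control by -1.33 at 72 hours and 2.05 at 7 days. Both have an exact two-sided permutation p of 0.1, the smallest that 3 mice against 3 can give (0.2 adjusted over 8 ratio tests). At 12 hours it was 0.516 to 0.871 and at 24 hours 0.524 to 1.10, overlapping the controls (exact permutation p = 0.2 for each).

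**Figure D2:**
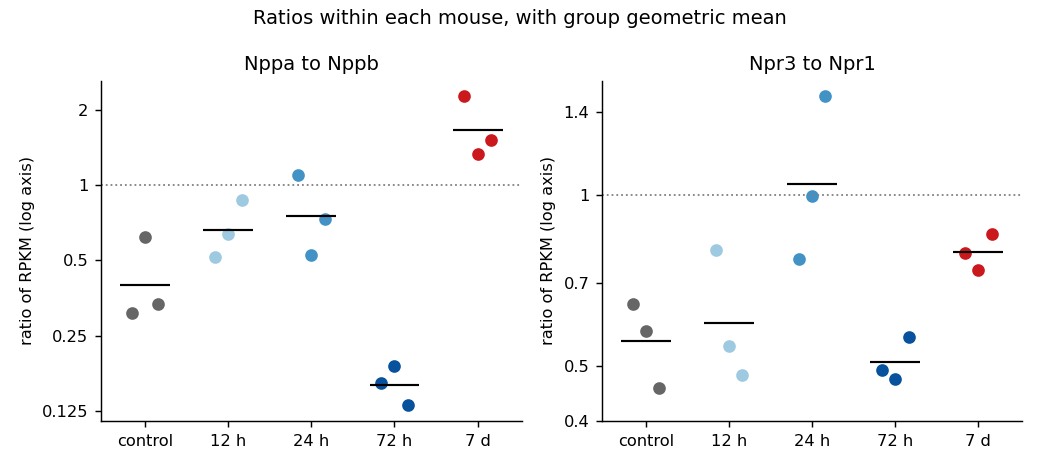
Ratio of Nppa to Nppb (left) and of Npr3 to Npr1 (right) in each mouse on a log axis, with the geometric mean of each group as a bar and a dotted line at 1. The Nppa to Nppb ratio lies at 0.131 to 0.189 at 72 hours and at 1.34 to 2.27 at 7 days.

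Corin, the protease that cuts the Nppa precursor, was lower at the middle times and back near control at 7 days. The controls read 37.82, 38.93 and 44.97 RPKM. The 12 hour mice read 23.61, 30.57 and 36.7, all below the controls, beside 43% of all genes. The difference of -0.43 ± 0.18 did not pass (limma adjusted p = 0.102). The 24 hour mice read 19.67, 21.03 and 21.88 RPKM, about 0.514 of the control mean and tightly grouped. The log2 difference from control was -0.93 ± 0.18 (limma adjusted p = 0.00798, or 0.0518 without control A3280).

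At 72 hours Corin read 16.27, 20.05 and 20.12 RPKM, or 0.464 of the control mean. Corin fell by 1.07 ± 0.18 on the log2 scale (limma adjusted p = 0.00113). With the column code as a term the difference was -0.98 and missed the threshold (limma adjusted p = 0.0688). That fit reaches the controls only through A3278. In A3278 alone, against the controls of the same column code, the difference was -0.98 (limma adjusted p = 0.0445), again for a single mouse with the pooled spread assumed. At 7 days the values were 31.53, 34.62 and 40.78 RPKM, overlapping the controls (-0.19 ± 0.18, limma adjusted p = 0.390). Corin therefore rose between 72 hours and 7 days, by 0.89 ± 0.18 (limma adjusted p = 0.000643), the same step in which Nppa rose. In order of mean level the groups ran control, 7 days, 12 hours, 24 hours and 72 hours, with no neighbours past the test, while 72 hours lay below 12 hours (-0.64 ± 0.18, limma adjusted p = 0.0185) and 7 days above 24 hours (0.74 ± 0.18, limma adjusted p = 0.00246).

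Npr1, the receptor that makes cyclic GMP in response to both peptides, was lower at 12 hours, 24 hours and 7 days. The controls read 9.04, 9.86 and 11.33 RPKM. The 12 hour mice read 5.83, 5.87 and 7.39 and the 24 hour mice 5.03, 6.24 and 7.54, all below the controls. So did 43% and 32.9% of all genes at these times, and 34.5% at 7 days. The 72 hour mice read 6.77, 8.405 and 9.98, overlapping them, and the 7 day mice read 4.51, 5.165 and 6.24, again all below. The log2 difference was -0.59 ± 0.19 at 12 hours, -0.62 ± 0.19 at 24 hours and -0.82 ± 0.19 at 7 days (limma adjusted p = 0.0473, 0.0369 and 0.00150), and -0.25 ± 0.19 at 72 hours (limma adjusted p = 0.404).

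Npr2, the receptor for C-type natriuretic peptide, followed the same order of groups at a higher level. The controls read 25.35, 25.93 and 26.91 RPKM, a narrow range. The 12 hour mice read 14.72, 16.43 and 18.71, the 24 hour mice 12.51, 15.94 and 19.2, and the 7 day mice 12.51, 13.9 and 15.42. All were below the controls, beside 43%, 32.9% and 34.5% of all genes at these times. The 72 hour mice read 21.24, 21.8 and 27.04, of which 2 were below the controls. The log2 difference was -0.63 ± 0.18 at 12 hours, -0.70 ± 0.18 at 24 hours and -0.86 ± 0.18 at 7 days (limma adjusted p = 0.0318, 0.0185 and 0.000534), and -0.16 ± 0.18 at 72 hours (limma adjusted p = 0.576).

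The early receptor values moved with base composition and scaling. The call at 12 hours held under 9 of 26 alternatives for Npr1 and 16 of 26 for Npr2, and the call at 24 hours under 15 of 25 and 21 of 25. The longest coding transcripts of Npr1, Npr2 and Nppa have a GC content of 57.4%, 55.0% and 55.3%. Those of Npr3, Nppb and Corin have 44.2%, 47.9% and 48.4%. With a GC correction the 12 hour differences were -0.08 for Npr1 and -0.17 for Npr2, and the 24 hour ones -0.17 and -0.32, none of them past the test. With median ratio scaling the 12 hour differences were -0.26 and -0.27. At 7 days both were called after GC correction, at -0.42 for Npr1 (limma adjusted p = 0.0177) and -0.54 for Npr2 (limma adjusted p = 0.00127). With the column code as a term the 7 day differences were -0.45 and -0.55 and neither passed (limma adjusted p = 0.306 and 0.089). Both rest on A3278, the only mouse outside the controls with their code. The part of base composition or code in these values was not tested.

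From 72 hours to 7 days Npr1 fell by 0.57 ± 0.19 and Npr2 by 0.70 ± 0.18 on the log2 scale (limma adjusted p = 0.0205 and 0.00355). Leaving out A3278 or A3269 ended the call for Npr1 (limma adjusted p = 0.0821 and 0.0812), as did a fit of only these mice (0.0585), the first column of each mouse (0.0992) and the column code as a term (0.0511). In order of mean level both ran control, 72 hours, 12 hours, 24 hours and 7 days, and no neighbours in that order passed the test. Exons of Nppa, Npr1 and Npr2 share 532, 559 and 266 bases with the antisense transcripts Gm13054, Gm16048 and Gm12473. The sources used here do not give the read strand, so reads from either partner cannot be told apart.

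Npr3, the clearance receptor, passed in no comparison with control. The controls read 5.18, 5.67 and 5.8 RPKM, the 12 hour mice 2.83, 4.01 and 4.67, and the 24 hour mice 5.81, 6.21 and 7.52. The 72 hour mice read 3.81, 3.99 and 4.91 and the 7 day mice 3.81, 3.85 and 4.935. The 24 hour mice lay just above every control, beside 13.9% of all genes. The other times lay below every control, beside 43%, 19.5% and 34.5% of all genes at 12 hours, 72 hours and 7 days. The differences of -0.46, 0.19, -0.33 and -0.34 in order of time, each ± 0.18, had limma adjusted p of 0.0901, 0.453, 0.241 and 0.120. The 7 day mice differed from the 24 hour mice by -0.53 ± 0.18 (limma adjusted p = 0.0223), and no neighbours in the order 24 hours, control, 72 hours, 7 days and 12 hours passed. After GC correction the 7 day difference from control was -0.65 (limma adjusted p = 0.005).

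The receptor balance was read from the ratio of Npr3 to Npr1. It was 0.457 to 0.642 in controls, 0.771 to 1.50 at 24 hours and 0.738 to 0.854 at 7 days. Both of those groups lay above every control (log2 difference 0.92 and 0.52, exact permutation p = 0.1 for each, adjusted 0.2). The summed RPKM of the 3 receptors was 40.19 to 43.42 in controls, 23.42 to 30.11 at 12 hours, 25.06 to 32.55 at 24 hours, 31.81 to 41.93 at 72 hours and 20.87 to 25.07 at 7 days.

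**Figure D3:**
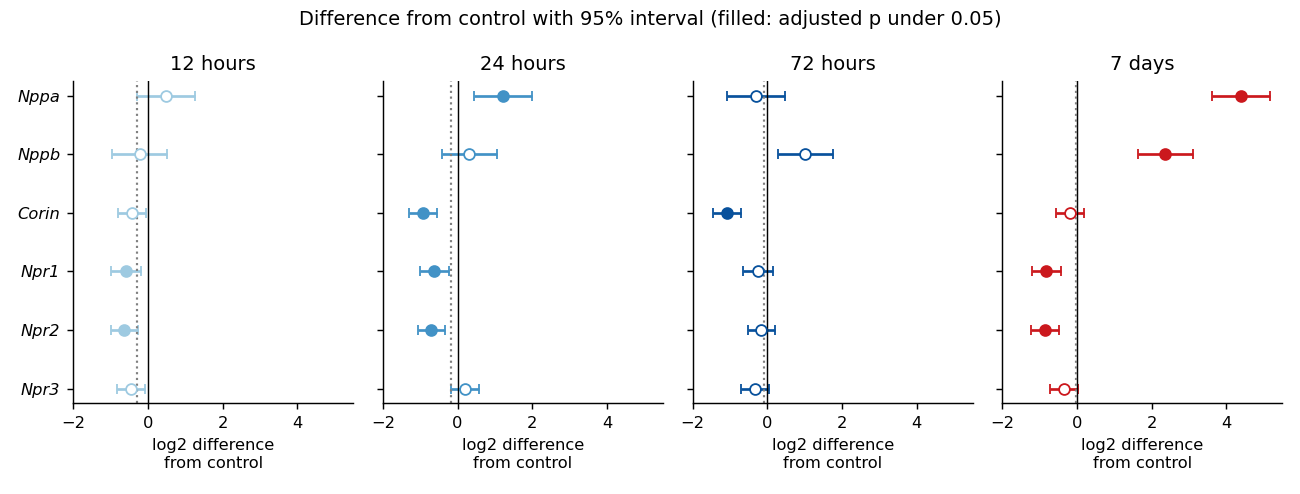
Difference from control in log2(RPKM + 1) for each member at each time, with the 95% interval of the limma fit; filled points passed an adjusted p of 0.05 and the dotted line is the median of all genes tested. At 7 days Nppa stands at 4.40 and Nppb at 2.36, with Npr1 and Npr2 below 0.

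Over all 5 groups, the limma F test gave each member an adjusted p between 8.71e-08 (Nppa) and 0.0188 (Npr3). Counted by comparison, 2 of the 6 members passed at 12 hours, both lower, where 12.7% of the 10868 genes tested were called lower and 0.524% higher. Leaving out any control, A3258 or A3276 left 0 called at 12 hours. At 24 hours 1 was higher and 3 were lower, beside 5.38% and 10.6% of all genes, and the 4 became 0 without control A3280, 1 without control A3259 or A3262, and 2 without control A3250 or A3277. At 72 hours none was higher and 1 was lower, beside 6.39% and 5.22%. At 7 days 2 were higher and 2 lower, beside 26.7% and 28.2%. The 4 comparisons share the same 3 controls. Between successive times none of the 6 passed from 12 to 24 hours (3.92% of all genes), 1 from 24 to 72 hours (10.2%), and 5 from 72 hours to 7 days (44.9%). After median ratio scaling, quantile normalization or GC correction 1 passed from 12 to 24 hours (Corin), and from 24 to 72 hours 3, 3 and 2 passed. Without A3278, 1 passed from 12 to 24 hours, and from 24 to 72 hours 2 passed without A3254 and 0 without A3264. Of the wider steps named above, 17.4% of all genes passed between 12 and 72 hours and 45.9% between 24 hours and 7 days.

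The 12 hour count stands beside a shift of the whole table. The median difference from control over all genes tested was, in order of time, -0.30, -0.19, -0.10 and -0.03. At 12 hours 57 genes were called higher and 1375 lower, and after median ratio scaling the split was 72 to 133, with none of the 6 members called. At 24 hours the split was 585 to 1151, and 976 to 688 after that scaling, with 3 of the 6 called.

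Of the 5 mice with 2 columns, 4 gave Nppa values that agreed within a ratio of 0.767 to 1.23. The 72 hour mouse A3264 read 8.39 RPKM in 1 column and 33.13 in the other, a ratio of 3.95 on 148 and 711 estimated reads. Only 0.276% of genes in that mouse were as far up between the same columns. Of the 11 atrial markers, 5 were higher and 6 lower in the second column, and their sums were 39.56 and 46.02 RPKM. Myl7 read 0.9 and 2.71 RPKM on 11 and 40 estimated reads, Myl4 read 4.78 and 13.9 RPKM, and Sln 0 and 1.91 on 0 and 24 estimated reads, while Nppb read 146.36 and 170.02. These 3 markers were named after their values were seen. The part of atrial tissue in the Nppa values of this mouse was not tested.

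**Figure D4:**
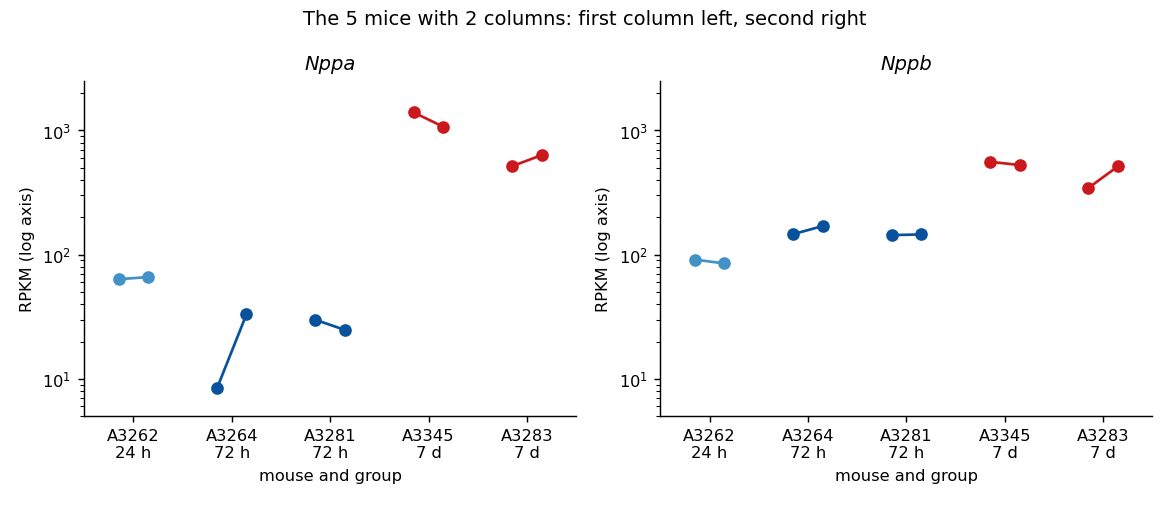
Nppa and Nppb RPKM (log axis) in the 5 mice with 2 columns, with the first column on the left and the second on the right of each line. Nppa in the 72 hour mouse A3264 moves from 8.39 to 33.13, while Nppb in that mouse moves from 146.36 to 170.02.

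Markers of other cells were set beside the 7 day rise of Nppa and Nppb. The 11 atrial markers summed to 47.93 to 74.64 RPKM at 7 days, below the 110.6 to 122.3 of the controls, with none of 9 tested called higher and 4 lower. After GC correction 1 was higher and 3 were lower. At 7 days 26.7% of all genes were called higher and 28.2% lower. At 24 hours the atrial sum was 97.39 to 181.7, and none was called higher and 1 lower, beside 5.38% and 10.6% of all genes. At 72 hours it was 38.91 to 108.7, below every control, with 3 called lower, beside 5.22% of all genes. The 8 markers listed for ventricular muscle, most of them genes of heart muscle in general, summed to 6565 to 8574 at 7 days, with 6 of 8 lower. The 10 fibroblast markers summed to between 564.9 and 669.5 in controls and between 2394 and 3147 at 7 days, with 7 called higher. The 8 macrophage markers summed to between 65.91 and 85.68 in controls and between 380.0 and 560.7 at 7 days, with all 8 called higher. Endothelial cells are a known site of Npr1, and the 12 endothelial markers summed to 392.2 to 424.1 in controls and 266.9 to 360.9 at 7 days, with 1 called higher and 5 lower. After GC correction 2 endothelial markers were higher and 3 lower at 7 days, and 5 fibroblast markers were higher. After median ratio scaling 2 endothelial markers were higher and 6 lower. After quantile normalization 1 of the 8 muscle markers was higher and 5 were lower. The 10 markers of smooth muscle cells and pericytes summed to 332.2 to 407.4 in controls and 303.0 to 393.9 at 7 days, which overlap. Of these, 5 were called higher and 4 lower. The part of cell makeup in the values of Npr1, Npr2, Nppa and Nppb was not tested.

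The other ligand genes were close to absent. Nppc, which encodes the C-type peptide that Npr2 binds, had group means of 0 to 0.327 RPKM, and Ostn, whose product binds Npr3, of 0 to 0.103. Neither reached the mean of 1 RPKM required for testing. Of 12 genes for peptide processing and breakdown, 5 were tested, and 0 were called higher at any time and 0 to 1 lower, beside the shares of all genes given above. None was called at 12 hours after median ratio scaling. After GC correction 1 was higher and 3 were lower at 7 days and 2 were lower at 72 hours, and after quantile normalization 2 were lower at 7 days. Furin, a protease of the secretory pathway, was lower at 12 hours (-0.75 ± 0.19, limma adjusted p = 0.0209), Pam, which amidates peptides, at 72 hours (-0.57 ± 0.15, limma adjusted p = 0.0243) and Cpe, carboxypeptidase E, at 7 days (-1.44 ± 0.17, limma adjusted p = 2.73e-06). Mme, which encodes neprilysin and degrades natriuretic peptides, averaged 2.98 RPKM in controls and 1.74 at 7 days (-0.54, limma adjusted p = 0.0555). It was named after its value was seen.

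Downstream of the receptors, 11 of 15 cyclic GMP signalling genes were tested. None was called at 12 hours, and at 7 days 4 were higher and 1 lower, beside 26.7% and 28.2% of all genes, with a list median of -0.02 beside -0.03 for all genes. The higher ones included the inhibitory G protein subunits Gnai3 (1.61), Gnai1 (0.56) and Gnai2 (0.69), and Rgs2, a brake on Gq signalling (0.69 at 7 days, -0.84 at 72 hours). Mrvi1, a target of cyclic GMP-dependent protein kinase, was lower (-0.83). After GC correction the 7 day count was 3 higher and 4 lower. Of 11 genes of phosphodiesterases and their subunits, 7 were tested, and 3 were higher and 2 lower at 7 days, beside the same shares. Pde1b (1.48), Pde1a (1.25) and Pde3b (0.96) were higher. Pde1b averaged 1.32 RPKM in controls, 0.707 to 0.787 at 12 to 72 hours and 5.61 at 7 days. Only through the 7 day mice did its mean reach the 1 RPKM required for testing. Pde3a, the main heart muscle form of its family, was lower at 24 hours (-0.73), 72 hours (-0.69) and 7 days (-0.88). At 24 hours no gene of this list was called lower after median ratio scaling, quantile normalization or GC correction. The same held at 72 hours after GC correction. Pde6d, listed as a delta subunit, was lower at 7 days (-0.80, limma adjusted p = 0.00493). Its 22.4 RPKM in controls was the highest of the list, and is the level of a subunit gene. The median of the phosphodiesterase list was 0.13 at 7 days.

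Of 20 transcription factors and cofactors that act on Nppa and Nppb or in the same cells, 0 were called higher at any time. In order of time 8, 5, 2 and 11 were called lower, beside 12.7%, 10.6%, 5.22% and 28.2% of all genes. The medians were -0.73, -0.58, -0.42 and -0.59, beside -0.30, -0.19, -0.10 and -0.03 for all genes. After median ratio scaling 1 was lower at 12 hours and 11 at 7 days, and 1 was higher at 24 hours. After GC correction 1 was higher and 9 were lower at 7 days. Hopx, a cofactor of serum response factor, fell by 2.13 ± 0.37 at 7 days, Tbx3 by 0.97, Zfpm2, the Gata4 cofactor, by 0.81 and Tbx5 by 0.77, each on the log2 scale. Gata4 and Gata6 are GATA factors, and their binding at the letters printed above was not tested. They averaged 29.8 and 21.0 RPKM in controls and 17.1 and 11.3 at 7 days (-0.76 and -0.86, limma adjusted p = 0.0341 and 0.0051). Nkx2-5 averaged 51.2 in controls and 18.6 at 7 days (-1.45, limma adjusted p = 0.00762). Gata4, Gata6 and Nkx2-5 were named after their values were seen.

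Of 18 tested genes of stressed and fetal heart muscle, 10 were higher and 5 lower at 7 days, beside 26.7% and 28.2% of all genes, with a median of 0.63 beside -0.03. The list holds Myh6 and Pln and sets no direction for its genes, so this split does not measure a stress response. Fhl1, a stretch-responsive LIM protein, was higher by 2.36 ± 0.18. Myh7, the slow myosin heavy chain that often rises with Nppa in the stressed mouse ventricle, fell by 2.85 ± 0.20 on the log2 scale, and Myh6 fell by 3.07. Myh6 and Myh7 are close copies, and how reads common to both were counted is not given in the sources used here. Pln, phospholamban, was lower at 24 hours (-1.36), 72 hours (-1.02) and 7 days (-1.75). At 72 hours none of the 18 was called higher and 6 were lower, beside 6.39% and 5.22% of all genes. After quantile normalization 3 were lower, and after GC correction 1 was higher and 6 were lower.

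**Figure D5:**
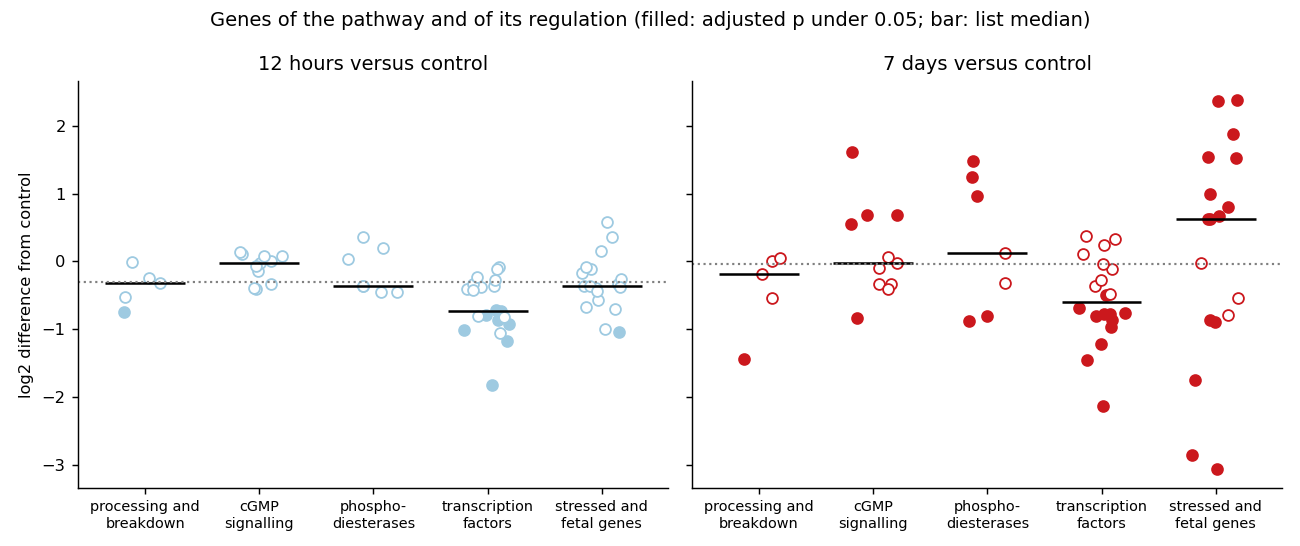
Log2 difference from control at 12 hours (left) and 7 days (right) for each tested gene of 5 lists, with the list median as a bar, the median of all genes as a dotted line, and filled points for an adjusted p under 0.05. The transcription factor list has its median at -0.73 at 12 hours and -0.59 at 7 days, and the stressed and fetal list at 0.63 at 7 days.

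The genes whose levels most resembled each member over the 15 mice differed between members. Pearson's r is given as a description, and the mice share groups, depth and column codes. Nppa was closest to Amica1 (r = 0.962), Serpinb1a (0.961) and Clec4b1 (0.960), which averaged 0.14, 1.89 and 0.38 RPKM in controls and 5.06, 32.3 and 5.58 at 7 days, and least like Pet112l (-0.952). Nppb was closest to Ptpn6 (0.954), Pscd4 (0.949) and Eif2ak3 (0.931) and least like Hadhb (-0.953), a subunit of the enzyme complex of fatty acid oxidation. Amica1 and Clec4b1 averaged at most 0.413 and 0.657 RPKM in the other groups and passed the filter only through the 7 day mice. The 7 day mice stand apart from the rest in Nppa, so its r ranks genes and measures no relation within the groups.

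Npr1 was closest to Vwa1 (0.958), Carm1 (0.957) and Numa1 (0.955), and Npr2 to Vwa1 (0.964), Lamb2 (0.962) and Pomgnt1 (0.952). Both were least like D12Ertd553e (-0.913 for Npr1, -0.927 for Npr2), and their r with each other was 0.950. Npr3 was closest to Abra (0.934), Cenpb (0.907) and Hk2 (0.890) and least like Rps27 (-0.815). Corin was closest to Mttp (0.923), Trappc1 (0.887) and Mapk14 (0.879) and least like Hnrph1 (-0.937), an RNA-binding protein gene that averaged 51.5 RPKM in controls and 99.9 at 72 hours.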

How the data were processed

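RNA of 15 ventricles was read from 1 deposited table of RPKM, scaled by the authors to gene model length and mapped reads. The aligners were TopHat and Bowtie and the build was mm9, per the submitters' processing notes; the sources used here give no counting tool and no strand. The table had 20 columns, since 5 mice had 2, which were averaged, and 9 column codes of unstated meaning. Groups were taken from the labels. Values were transformed to log2(RPKM + 1), and the 10868 genes whose mean reached 1 RPKM were fitted with limma 3.58.1 in R 4.3.3 (lmFit, contrasts.fit, eBayes with trend; 15 libraries, 5 groups, 10 residual and 7.12 prior degrees of freedom). Adjusted p-values are Benjamini-Hochberg values over all genes of 1 comparison (threshold 0.05), and SE and intervals come from this fit. No count model was used.

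Depth was estimated from the smallest step among 118 single-exon receptor genes, and 59 of 60 simulated depths came within 5%. Intervals from depth cover counting error only. Ratios had exact permutation tests. On simulated data for 72 hours against control, limma recovered 1 of 50 genes changed by 0.5 on the log2 scale, 39 of 50 by 1 and 50 of 50 by 2, and called 11 of 10668 unchanged genes.

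Alternatives were median ratio scaling, quantile normalization, no filter, a filter at a mean of 5 RPKM, a pseudocount of 0.1, GC correction (lowess, span 0.3), robust empirical Bayes, the compared groups alone, only the first column per mouse, a term for the column code (16 columns, mouse as a random block, without the 24 hour group), the controls' code alone and leaving out each mouse. The second column of each mouse was added after seeing the data. Members and lists were chosen with earlier results of these data known. Named genes were the 6 members, for each the 3 most like and 1 most unlike genes by r, and from each list up to 4 genes past the test by smallest adjusted p and the gene with the highest level. Promoter windows are from RefSeq (GRCm38.p6), and all 6 members matched. Splicing, proteins and the genes Pcsk6, Cnga1, Pde2a, Esam, Plin1 and Hba-a1 were not analysed here.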

Additional observations from a re-analysis of the deposited data

Results flagged for a closer look

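6 differences between successive times passed the limma test of the difference itself, with 3 mice a group. From 24 to 72 hours Nppa differed by -1.50 (mean 101.6 to 38.4 RPKM). From 72 hours to 7 days Nppa differed by 4.69 (38.4 to 939.9 RPKM), Nppb by 1.34 (239 to 546.9) and Corin by 0.89 (18.8 to 35.6), while Npr1 differed by -0.57 (8.38 to 5.30) and Npr2 by -0.70 (23.4 to 13.9). Nppa, Nppb and Corin were higher in 3 of 3 mice at 7 days than in any 72 hour mouse, beside 25% of all genes. Npr1 and Npr2 were lower in 3 of 3, beside 26.2%. Outlying single mice were not tested within groups of 3.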

How the results depend on the processing

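No paired analysis was possible because every mouse has its own number and the groups share none. Of 42 member differences (6 members, 7 comparisons), 17 passed, and 6 of these passed under all alternatives run for them: Nppa and Nppb at 7 days against control and against 72 hours, and Npr2 and Corin at 7 days against 72 hours. Over 1073 values of member differences under the alternatives, 972 kept their direction and side of the threshold, 60 no longer passed, 20 newly passed and 21 changed sign. The cause of these changes was not tested.

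At 12 hours 1 of the 6 members passed with a pseudocount of 0.1 and 1 with no filter, and 0 passed with median ratio scaling, quantile normalization, GC correction, the first column of each mouse or the column code as a term. At 24 hours 2 passed with no filter, with GC correction and with the first column. At 72 hours 2 passed (Corin and Nppb) with median ratio scaling, quantile normalization, GC correction, the controls' code alone and the second column. At 7 days 2 passed with the column code as a term (Nppa and Nppb). Every difference from control under that term, at any time, rests on A3278. Leaving out 1 mouse gave 0 to 2 members at 12 hours, 0 to 4 at 24 hours, 1 to 2 at 72 hours and 4 throughout at 7 days. The 2 at 72 hours came without A3277 or A3262 of the 24 hour group, and the 12 hour count was 1 without A3277, A3281, A3264, A3345 or A3283.

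Over all genes, 1432 passed at 12 hours, and 880 with no filter, 205 with median ratio scaling, 194 with quantile normalization, 190 with GC correction, 3244 in the compared groups alone, 718 with the first column and 9 with the column code. At 24 hours 1736 passed, and 1056 with no filter and 1042 with GC correction. At 72 hours 1262 passed, and 730 with the first column, 376 with the column code and 268 with the controls' code alone. At 7 days 5960 passed, and 3171 with the column code. Leaving out 1 mouse gave 137 to 2350 genes at 12 hours, 39 to 2582 at 24 hours, 478 to 2490 at 72 hours and 4962 to 6284 at 7 days. At 12 hours the count was 631, 159 and 137 without controls A3250, A3259 and A3280, 473 and 289 without A3258 and A3276, and 2350 without A3278. At 24 hours it was 1049, 219 and 39 without the same controls and 139 without A3262. At 72 hours it was 714, 573 and 496 without them, 478 and 574 without A3281 and A3264, and 2490 without A3278.

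All values that changed sign had missed the test. Nppb at 12 hours was 0.159 with median ratio scaling, 0.084 with quantile normalization, 0.020 with GC correction and 0.899 with the column code. Nppa at 72 hours was 0.678 with the column code and 0.678 with the controls' code alone. Npr2 at 72 hours was 0.042 with GC correction, 0.052 with the column code and 0.052 with the controls' code alone. With the column code Npr3 and Corin at 7 days were 0.021 and 0.062, and Npr3 from 72 hours to 7 days was 0.168. The Npr3 to Npr1 ratio at 72 hours was 0.096 with the first column. Leaving out 1 mouse gave -0.029 to 0.596 for Nppb at 24 hours, -0.778 to 0.045 for Nppa at 72 hours, -0.150 to 0.101 for Npr1 and -0.214 to 0.076 for Npr2 from 12 to 24 hours, -0.111 to 0.079 for Npr3 from 72 hours to 7 days and -0.111 to 0.255 for the Npr3 to Npr1 ratio at 12 hours.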
